A study of Mus musculus with 6 samples.

Results

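The Shisa genes Shisa2, Shisa4, Shisa5, Shisa6, Shisa7 and Shisa9 are described here by the NOVA1 and NOVA2 CLIP clusters that lie in them, with the 3' UTR of Shisa7 in most detail. A cluster was taken when it overlapped, by at least 1 nt and on the same strand, the GENCODE vM1 span of one of these 6 genes, of 37310 annotated genes in all. This gave 14 of 9988 NOVA1 clusters and 48 of 36591 NOVA2 clusters, with 2823 of 304703 and 6946 of 1309270 tags. In HITS-CLIP, RNA that ultraviolet light has linked to a protein is recovered with an antibody against that protein and sequenced, and each distinct read is a tag. The material was cortex of wild-type CD1 mice at embryonic day 18.5, with 3 libraries for NOVA1 and 3 libraries for NOVA2, and nothing in the sources used here says how many animals a library came from. Whole cortex holds neurons, glia and vessels, and the cell type behind a tag cannot be told from the lists. The authors pooled the 3 libraries of each protein and deposited clusters of at least 10 tags, with 1 pooled tag count for each. Because the counts are pooled, there is no spread between replicates and no difference below was tested. The intervals given are 95% intervals and cover counting error only.

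In neurons, the RNA-binding proteins NOVA1 and NOVA2 recognise clusters of the tetramer YCAY, in which Y is C or U. In introns their binding is known to change the inclusion of neighbouring exons, and in 3' UTRs it has been tied to the choice of polyadenylation site and to the transport of messenger RNA. The Shisa proteins cross the membrane once and carry a cysteine-rich domain outside it. Shisa6, Shisa7 and Shisa9 belong to a branch of the family whose members bind AMPA-type glutamate receptors and alter their gating, and Shisa7 has also been found at GABA-A receptors. Shisa2 holds back receptors of the Wnt and FGF pathways in the endoplasmic reticulum, and Shisa5, also called Scotin, is an endoplasmic reticulum protein linked to apoptosis.

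The sequences that carried the densest YCAY in the highest NOVA2 cluster of Shisa7, Shisa9 and Shisa5 are given first, each 30 nt long and read 5' to 3' on the gene's strand of the mm9 genome, with YCAY in capitals. The first Shisa7 window lies at chr7:4779459-4779488, the second at chr7:4779231-4779260, the third at chr7:4779609-4779638 and the fourth at chr7:4779408-4779437, all on the minus strand in the 3' UTR. The Shisa9 window is intronic at chr16:12001582-12001611 on the plus strand. The Shisa5 window is coding sequence at chr9:108958538-108958567 on the plus strand.
Shisa7 window 1: cUCACcUCAUCACcucccagcauCCAUCAC
Shisa7 window 2: gCCAUCAUagcuaugaugUCACCACuUCAU
Shisa7 window 3: aggcauuaUCACCAUuaauggcaUCAUCAU
Shisa7 window 4: cagcaaUCACaaCCAUacaguccUCACCAU
Shisa9 window 1: uaUCAUuaUCAUCAUCAUCAUCACCAUCAC
Shisa5 window 1: auugCCACuaUCAUCAUcugcuUCACcugc
The Shisa9 window holds 8 YCAY starts, many of them overlapping in runs of UCA. The Shisa7 windows hold 5, 5, 4 and 4 starts set in mixed sequence, and the Shisa5 window holds 4.

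Clusters were uneven over the family. Shisa7, Shisa6 and Shisa9 held clusters in both lists, Shisa5 held 1 in the NOVA2 list alone, and Shisa2 and Shisa4 held none in either. Over all protein-coding genes, 12.7% held a NOVA1 cluster and 22.7% a NOVA2 cluster, and the members were chosen with these lists in view, so 3 and 4 of 6 are given as a description. The NOVA1 clusters numbered 3 in Shisa7 with 2531 tags, 6 in Shisa6 with 139 tags and 5 in Shisa9 with 153 tags. The NOVA2 clusters numbered 5 in Shisa7 with 5522 tags, 17 in Shisa6 with 541 tags, 25 in Shisa9 with 872 tags and 1 in Shisa5 with 11 tags. Shisa7 therefore had fewer clusters than Shisa6 and Shisa9 in each list and far more tags. It took 89.7% (Wilson interval 88.5 to 90.7) of the family's NOVA1 tags and 79.5% (78.5 to 80.4) of its NOVA2 tags. These were 0.831% of all NOVA1 tags and 0.422% of all NOVA2 tags in the lists. Shisa7 was chosen because it holds the highest NOVA2 cluster, so its shares are given as values only. Their intervals treat tags as independent, although 1 cluster per list held 2442 of the 2531 NOVA1 and 5467 of the 5522 NOVA2 tags. In the study the minimum was set on a tag number called peak height. The lists do not say whether a value is the number of all tags in a cluster or its greatest depth, and where it is a depth these sums are sums of depths.

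**Figure D1:**
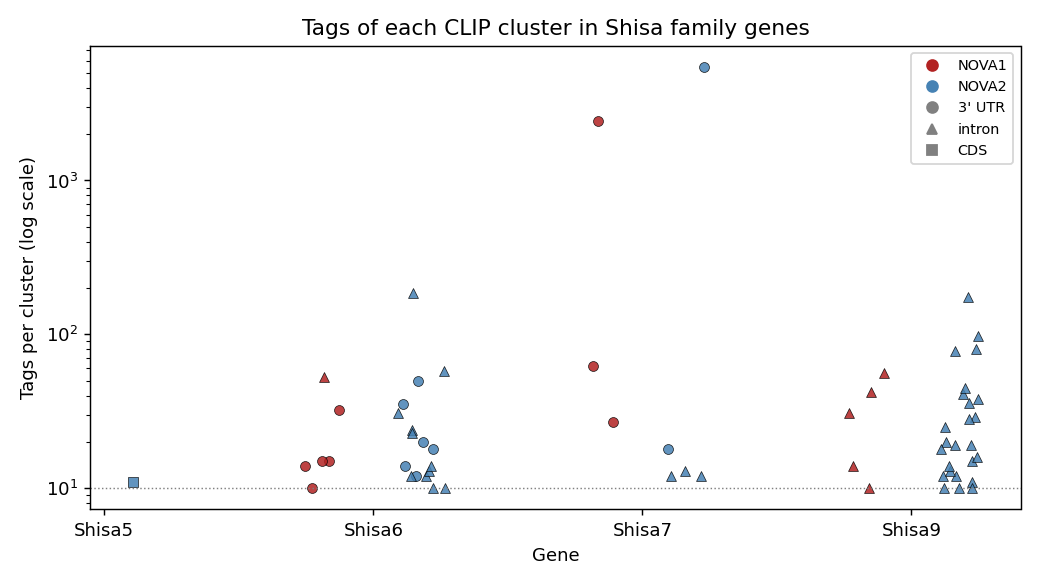
Tags of every cluster in Shisa5, Shisa6, Shisa7 and Shisa9 (log scale), NOVA1 in red and NOVA2 in blue, with circles for 3' UTR, triangles for intron and a square for coding sequence; points are spread sideways for legibility and the dotted line marks the minimum of 10 tags. The pair of Shisa7 3' UTR clusters at 2442 and 5467 tags stands above every other cluster of the family, of which the next highest is a Shisa6 intron cluster at 185 tags.

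The length of a gene bears on how many clusters it can hold. Shisa7 spans 19145 nt, Shisa6 314240 nt and Shisa9 283223 nt. Per 100 kb of span the NOVA2 clusters came to 26.1 in Shisa7, 8.83 in Shisa9, 5.41 in Shisa6 and 5.22 in Shisa5. Of the 5076 protein-coding genes with a NOVA2 cluster, 95.5% had fewer clusters than Shisa9, 92.7% fewer than Shisa6 and 70.6% fewer than Shisa7. Ordered by tags, Shisa7 ranked 1 of 2853 genes in the NOVA1 list and 17 of 5076 in the NOVA2 list. Shisa6 ranked 427 and 428, and Shisa9 ranked 385 and 244.

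The family also divided by the part of the transcript that was bound. In Shisa7, all NOVA1 tags and 5485 of 5522 NOVA2 tags lay in the 3' UTR. In Shisa9, all clusters of both lists were intronic, and GENCODE vM1 gives this gene no 3' UTR, so none could be assigned to one. Shisa6 held both kinds. Its 3' UTR had 5 NOVA1 clusters with 86 tags and 6 NOVA2 clusters with 149 tags, and its introns had 1 NOVA1 cluster with 53 tags and 11 NOVA2 clusters with 392 tags. Over the family, 8 of 14 NOVA1 clusters were in a 3' UTR (57.1%, Wilson interval 32.6 to 78.6), beside 37.7% of the whole NOVA1 list. For NOVA2 this was 8 of 48 (16.7%, 8.70 to 29.6), beside 12.1% of its list. Both list values fell inside the family's intervals. Introns held 39 of the 48 NOVA2 clusters (81.3%, 68.1 to 89.8), beside 74.6% of that list.

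The Shisa7 gene lies at chr7:4777154-4796298 on the minus strand, and its longest annotated 3' UTR has 4083 nt. Position in it is counted here from 1 at the first nucleotide after the stop codon. It held 3 NOVA1 clusters. The first ran from 178 to 764 (chr7:4780473-4781059) with 62 tags. The second ran from 782 to 3280 (chr7:4777957-4780455) with 2442 tags. The last ran from 3760 to 3929 (chr7:4777308-4777477) with 27 tags. Together they covered 3256 nt, or 79.7% of the 3' UTR. NOVA2 had a cluster of 18 tags from 404 to 565 (chr7:4780672-4780833) and one of 5467 tags from 1382 to 2548 (chr7:4778689-4779855), and these covered 1329 nt, or 32.5%. Each NOVA2 cluster in the 3' UTR thus lay wholly inside a wider NOVA1 cluster, and the NOVA1 cluster of 27 tags near the 3' end had no NOVA2 partner. The highest NOVA1 cluster was 2499 nt wide, the widest of its list, and the highest NOVA2 cluster was 1167 nt wide, which ranked 2 in its list, where the widest had 1318 nt.

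Shisa7 was chosen by these heights, since it holds the highest NOVA2 cluster of the list, and they are given as values only. The NOVA2 cluster was the highest of its list, above one of 5106 tags, and the NOVA1 cluster ranked 2 below one of 9547 tags. Among 3' UTR clusters each was the highest of its list, 2.56 times the next for NOVA2 and 1.59 times the next for NOVA1. Per nt of width the ranks were lower, at 11 of the NOVA2 list and 82 of the NOVA1 list, with 468 and 97.7 tags per 100 nt. Summed by gene, Shisa7 had the most 3' UTR tags of 2082 genes in the NOVA2 list, where Celf2, an RNA-binding protein gene, came next with 2852. It also had the most of 1812 genes in the NOVA1 list, where Lars2, the mitochondrial leucyl-tRNA synthetase gene, came next with 1539. The median gene with a 3' UTR cluster had 38 NOVA2 tags and 29 NOVA1 tags in it.

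The sequence of the 3' UTR, which played no role in choosing the gene, was rich in YCAY as a whole, though not evenly. It held 180 YCAY starts, or 44.1 per 1000 positions (exact Poisson interval 37.9 to 51.1). Among the longest annotated 3' UTRs of 16560 protein-coding genes, those of at least 200 nt, the median was 16.6 per 1000 and the 99th percentile was 34.7. Shisa7 ranked 18 of these by density and 13 by number of starts. The 17 higher densities belonged to 3' UTRs under 2000 nt, and among the 4195 of at least 2000 nt Shisa7 ranked 1. The other Shisa genes were nearer the middle of the distribution. Shisa6 had 22.1 per 1000 (18.4 to 26.3) over 5747 nt, above 85.0% of 3' UTRs. Shisa5 had 18.8, Shisa2 17.7 and Shisa4 16.9, above 67.5%, 59.6% and 52.2%. Shisa2 and Shisa4, which held no cluster, and Shisa5, whose cluster was not in its 3' UTR, were therefore close to the median in this feature.

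**Figure D2:**
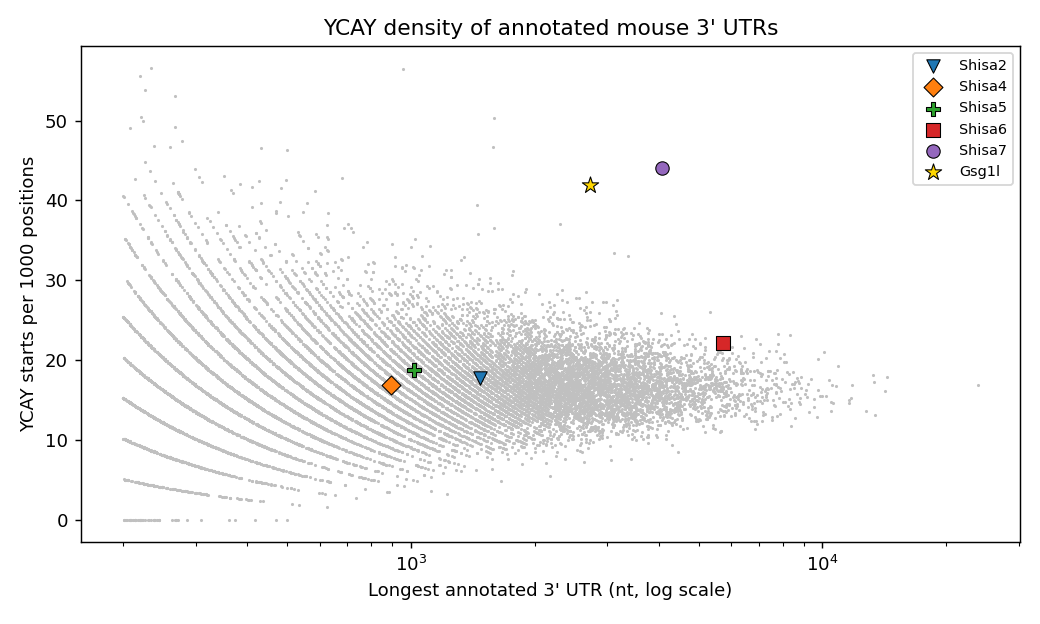
YCAY starts per 1000 positions against the length of the longest annotated 3' UTR (nt, log scale) for 16560 protein-coding genes in grey, with 5 Shisa genes and Gsg1l marked. Shisa7 at 44.1 and Gsg1l at 41.9 lie above every other 3' UTR of at least 2000 nt, of which the next has 37.0, while Shisa2, Shisa4, Shisa5 and Shisa6 lie between 16.9 and 22.1.

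Within the Shisa7 3' UTR, YCAY was densest where the highest NOVA2 cluster lay. That cluster held 76 starts, 65.3 per 1000 positions (51.4 to 81.7). The rest of the highest NOVA1 cluster, on either side of it, held 39 starts, 29.4 per 1000 (20.9 to 40.2), so that the inner part was 2.22 times as dense (exact interval 1.49 to 3.36). The 600 nt towards the stop codon had 25.1 per 1000 (14.1 to 41.4) and the 732 nt towards the 3' end had 32.9 (21.1 to 49.0). The 827 nt of the 3' UTR in no cluster of either list had 33.1 (21.8 to 48.2). The NOVA1 cluster of 62 tags was also dense, at 54.8 (37.5 to 77.4), and the NOVA2 cluster of 18 tags inside it had 50.3 (21.7 to 99.1). The NOVA1 cluster of 27 tags had 24.0 (6.53 to 61.3). Sequence outside all clusters thus still had about the density of the NOVA1 flanks of the NOVA2 cluster. The dense cluster near the stop codon had 62 NOVA1 tags and its NOVA2 partner 18. Whether density bears on the tag count was not tested.

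**Figure D3:**
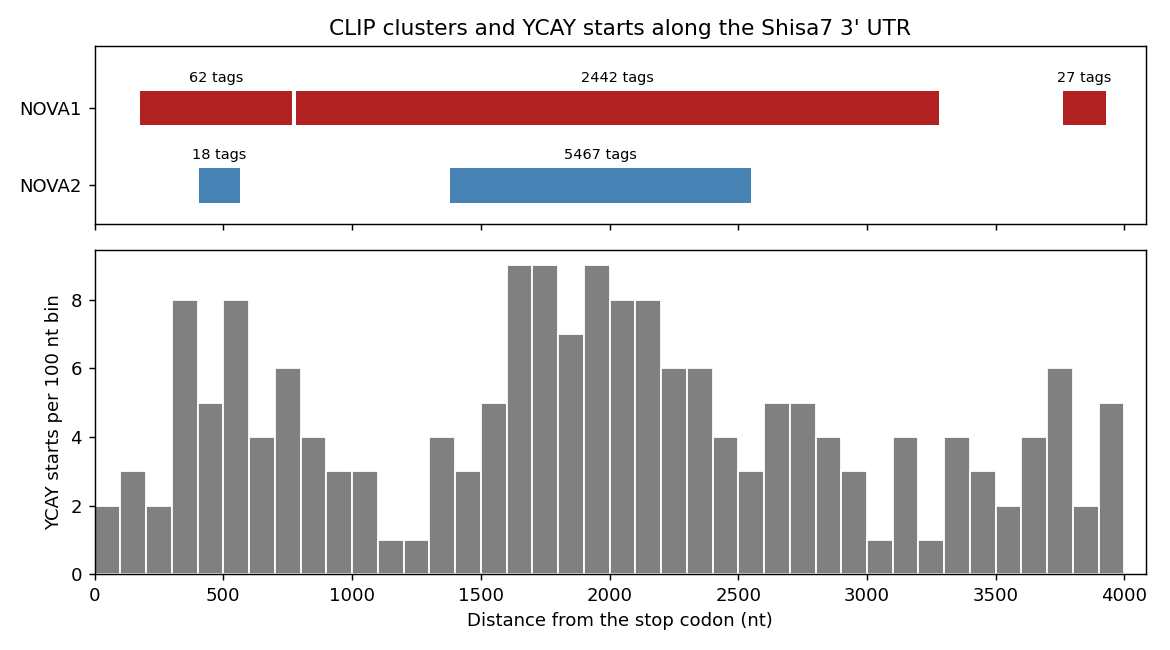
Clusters of both proteins along the Shisa7 3' UTR (upper, red NOVA1 and blue NOVA2, with pooled tags) and YCAY starts in bins of 100 nt (lower; the last bin is shorter), by distance from the stop codon in nt. The 11 bins wholly inside the NOVA2 cluster of 5467 tags hold 3 to 9 starts, with the highest value of 9 first reached from 1601 to 1700 nt. The 15 bins covered by NOVA1 clusters alone hold 1 to 8. The 5 full bins in no cluster hold 2 to 4, while the shorter last bin, also in no cluster, holds 0.

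The motifs inside the NOVA2 cluster stood close together. The median distance from one YCAY start to the next was 12 nt, and 68 of 75 distances (90.7%) were at most 30 nt, while the longest was 58 nt. Over the whole 3' UTR the median distance was 16 nt and the longest 155 nt. Of the 76 tetramers, 28 were UCAU, 25 CCAU, 17 UCAC and 6 CCAC, whereas over the whole 3' UTR the counts were 46, 54, 40 and 40. CCAC was therefore the least used of the 4 forms inside the cluster, with 34 of its 40 copies elsewhere in the 3' UTR. The heptamer UCACCUC, seen in window 1 around its first tetramers, occurred 7 times in the NOVA2 cluster and the same 7 times in the NOVA1 cluster that contains it. It was the most frequent heptamer there and was picked for that reason. It was searched on the cluster strand only, and its first 4 letters are a YCAY. It was present in 2.49% of NOVA2 and 3.06% of NOVA1 3' UTR clusters, and no other 3' UTR cluster in either list held 3 or more. Width adds to such counts, and the Shisa7 clusters were among the widest.

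Compared with other 3' UTR clusters, the highest Shisa7 clusters held the most YCAY starts of 4415 in the NOVA2 list, where the next had 36, and of 3763 in the NOVA1 list, where the next had 38 and Shisa7 116. By density 97.4% of NOVA2 and 91.3% of NOVA1 3' UTR clusters were below them. Among 3' UTR clusters at least 500 nt wide, the NOVA2 cluster ranked 1 of 41 (65.3 against a median of 26.3) and the NOVA1 cluster ranked 3 of 100 (46.5 against a median of 21.1). Set against its own flanks, 200 to 500 nt from either end, the NOVA2 cluster was 2.15 times as dense (1.28 to 3.83). The NOVA1 cluster was 0.952 times as dense (0.629 to 1.48) as its flanks, which lie in the same 3' UTR and had 48.8 per 1000. The flank of that cluster towards the stop codon lies inside the NOVA1 cluster of 62 tags, so it is not unbound sequence. Both flanks of the NOVA2 cluster lie inside the NOVA1 cluster of 2442 tags, so they are not unbound either. Over the 3' UTR in no cluster, the folds were 1.40 for the NOVA1 cluster and 1.97 for the NOVA2 cluster.

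A further 3 NOVA2 clusters lay in a Shisa7 intron of 7726 nt and had no NOVA1 partner. They had 12 tags at chr7:4789308-4789386, 13 at chr7:4791075-4791161 and 12 at chr7:4791162-4791229, all near the minimum of 10. The first had 92.1 YCAY per 1000 and was 827 nt from the downstream exon. The other pair abutted each other, with 35.7 and 15.4 per 1000, and 2.84% of intron clusters in the list had a lower density than the latter. In Shisa7 the intronic tags came to 37, against 5485 in the 3' UTR.

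Shisa6, at chr11:66025227-66339466 on the minus strand, showed a 3' UTR with several clusters of 10 to 50 tags in place of 1 dominant one. Its 3' UTR NOVA1 clusters had 10, 32, 15, 14 and 15 tags, and its NOVA2 clusters had 14, 18, 35, 12, 20 and 50. They covered 674 and 686 nt, or 11.7% and 11.9% of the annotated length, and they were 66 to 284 nt wide. Of these, 4 of 5 NOVA1 and 5 of 6 NOVA2 clusters overlapped a cluster of the other protein. The NOVA1 cluster at chr11:66026210-66026493 with 32 tags spanned a pair of NOVA2 clusters with 53 tags in sum. The NOVA1 cluster of 15 tags at chr11:66028657-66028744 and the NOVA2 cluster of 12 tags at chr11:66026936-66027025 had no partner. YCAY density was 33.4 per 1000 over the 5 NOVA1 clusters and 40.4 over the 6 NOVA2 clusters. That was 1.44 times (0.847 to 2.35) and 1.64 times (1.02 to 2.54) the flanks, beside 1.54 and 1.71 over all 3' UTR clusters of the lists.

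The highest Shisa6 cluster was intronic. At chr11:66305522-66305788 NOVA2 had 185 tags in 267 nt with 26 YCAY starts, 98.5 per 1000, and at chr11:66305665-66305774, inside it, NOVA1 had 53 tags in 110 nt with 112 per 1000. The site lies 10365 nt from the nearest exon in an intron of 127397 nt. Of its 25 distances between successive YCAY starts, 13 (52.0%) were exactly 3 nt, the distance at which successive tetramers overlap by 1 nt. Over all NOVA2 intron clusters that share was 9.88%. In the highest Shisa7 NOVA2 cluster, which is in a 3' UTR, it was 15 of 75 (20%), beside 6.22% over all NOVA2 3' UTR clusters. The other 10 NOVA2 intron clusters of Shisa6 had 10 to 58 tags and no NOVA1 partner. They fell in introns of 150140 and 127397 nt, and 5 of them lay together between 66177017 and 66179000 with 12 to 31 tags.

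Shisa9, at chr16:11984674-12267896 on the plus strand, was bound in introns along much of its length. Of its 25 NOVA2 clusters, 21 lay in an intron of 247427 nt, 2 in one of 11909 nt and 2 in one of 8021 nt, and all 5 NOVA1 clusters lay in the longest. The highest NOVA2 cluster, at chr16:12001552-12001674, had 176 tags and 108 YCAY per 1000, and the highest NOVA1 cluster, at chr16:12001555-12001685, had 56 tags and 102 per 1000. Both contain the Shisa9 window, and 9 of their 12 successive distances between YCAY starts (75.0%) were exactly 3 nt. NOVA2 clusters of 97 tags at chr16:12028348-12028482 and 80 tags at chr16:12001129-12001310 also had NOVA1 partners. The cluster of 78 tags at chr16:12155845-12156081 had none. The NOVA1 cluster at chr16:12000952-12001242 with 42 tags spanned a pair of NOVA2 clusters with 20 and 80 tags.

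Matches elsewhere in the genome limit some Shisa9 sites. The site at chr16:12174755-12174889, with 45 NOVA2 tags and the highest YCAY density of the family at 136 per 1000, had 30 further copies of at least 90% identity over at least 50% of its length, and the overlapping NOVA1 cluster of 14 tags had 1. The NOVA2 cluster of 36 tags at chr16:12002860-12003029 had 8. No further copy was found for any other cluster of the family, the Shisa7 clusters included. Tags at these 3 clusters may have come in part from other loci, which was not tested. Just outside the rule, 1 cluster per list lay past the annotated 3' end of Shisa9. The NOVA1 cluster had 11 tags at chr16:12270120-12270177, 2223 nt past the end and with 0 YCAY. The NOVA2 cluster had 16 tags at chr16:12269812-12269905, 1915 nt past the end and with 3 YCAY. They did not overlap each other.

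**Figure D4:**
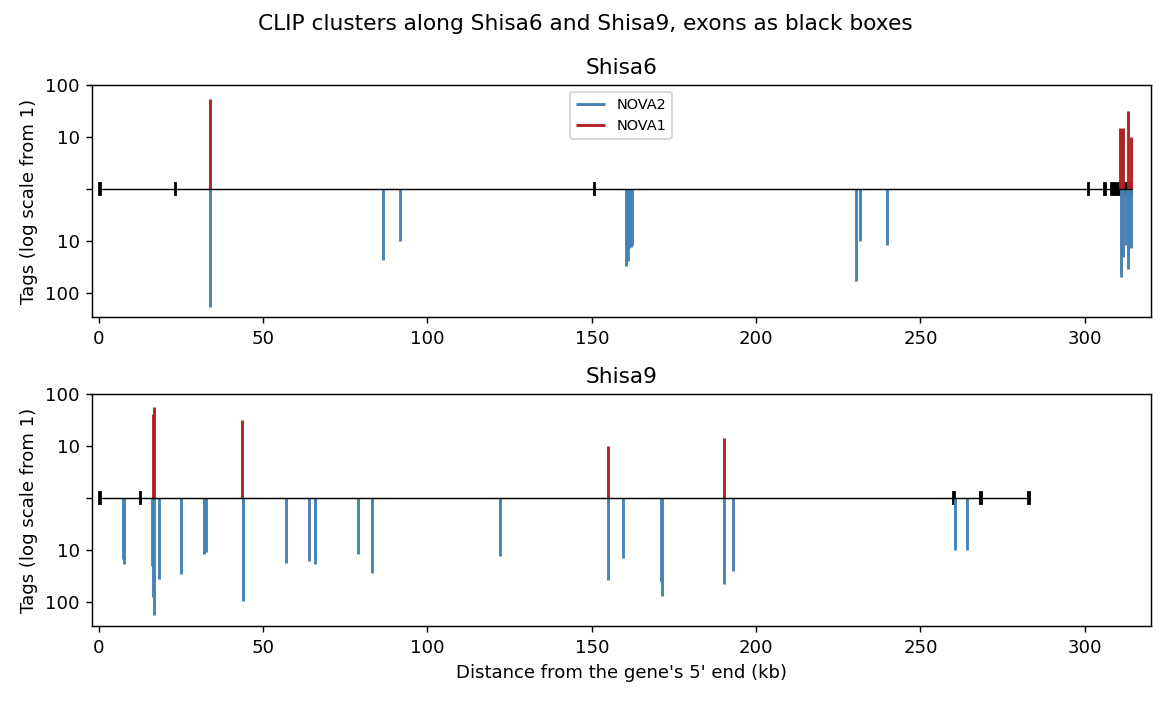
Clusters along Shisa6 and Shisa9 by distance from the 5' end of the gene in kb, with NOVA1 tags upward in red, NOVA2 tags downward in blue (both on a log scale that starts at 1 tag) and exons as black boxes drawn at least 0.4 kb wide. Shisa6 clusters lie in the 3' UTR at the right end and at 1 intron site shared by both proteins near 34 kb. Further Shisa6 clusters, of NOVA2 alone, lie along its long introns, and Shisa9 clusters lie mostly along its longest intron.

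Most intron clusters of the family were far from exons. The nearest exon was a median of 20089 nt away for the 39 NOVA2 clusters and 20716 nt for the 6 NOVA1 clusters, and 35 and 6 of them were over 3000 nt away. Over all intron clusters the medians were 9714 and 11325 nt. Within 500 nt of an exon, where splicing regulation by NOVA is best described, lay 1 of the 39 NOVA2 clusters and 0 of the 6 NOVA1 clusters, beside 10.4% and 12.7% of intron clusters in the lists. The 1 was the Shisa9 cluster at chr16:12245169-12245250, with 10 tags, 312 nt from an exon. Long introns are a property of Shisa6 and Shisa9, and their part in these distances was not tested. In sequence, the intron clusters of the family were 4.67 times as dense in YCAY as their flanks for NOVA1 (3.29 to 6.65) and 2.70 times for NOVA2 (2.31 to 3.14). Over all intron clusters these folds were 2.81 and 2.41. None of the 62 clusters in the family was without a YCAY, and few clusters of the lists were. Those without one were 70 of 3763 NOVA1 and 88 of 4415 NOVA2 clusters in 3' UTRs. In introns they were 27 of 4022 NOVA1 and 112 of 27293 NOVA2 clusters.

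The lone Shisa5 cluster lay in coding sequence at chr9:108958538-108958585, with 11 tags in 48 nt and 4 YCAY starts, which are those of the Shisa5 window. No NOVA1 cluster overlapped it. Shisa2 at chr14:60244118-60250495 and Shisa4 at chr1:137267634-137271814 had no cluster of at least 10 tags, and lower tag counts cannot be seen in these lists. RNA abundance was not measured in these files, so a gene with little RNA in the cortex and a gene with RNA that was not bound cannot be told apart. Shisa3, annotated but outside the members, also held no cluster, and Shisa8 was not analysed here.

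Overlap between the 2 lists, which differ in length, was counted from each side. Of the family's NOVA1 clusters, 12 of 14 overlapped a NOVA2 cluster (85.7%, Wilson interval 60.1 to 96.0), beside 80.1% of the NOVA1 list. Of its NOVA2 clusters, 14 of 48 overlapped a NOVA1 cluster (29.2%, 18.2 to 43.2), beside 22.1% of the NOVA2 list. All 6 NOVA1 intron clusters were shared (list 95.5%), but 7 of 39 NOVA2 intron clusters were (list 14.1%). In 3' UTRs 6 of 8 NOVA1 clusters (list 74.0%) and 7 of 8 NOVA2 clusters (list 64.5%) were shared. For the shares over all classes, the list values lie inside the intervals. The shares by class rest on 6 to 39 clusters and carry no interval, so they are given as counts only.

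At 10 sites 1 NOVA1 cluster overlapped 1 NOVA2 cluster, and their unscaled pooled tags could be set side by side. All 5 intron pairs had fewer NOVA1 than NOVA2 tags, as did 97.2% of 3452 intron pairs. The Shisa6 pair had 53 and 185 tags, a log2 ratio of NOVA1 over NOVA2 of -1.80 (exact interval -2.27 to -1.36). The Shisa9 pairs had 56 and 176, 31 and 97, 10 and 38, and 14 and 45 tags, with log2 ratios of -1.65, -1.65, -1.93 and -1.68. The 5 values ran from -1.93 to -1.65. The widest interval, for 10 and 38 tags, was -3.10 to -0.89, so how close the values are cannot be judged. The list's intron pairs had a median of -2.04 and quartiles of -2.63 and -1.36. Of the 5 3' UTR pairs, 4 had fewer NOVA1 tags, beside 64.7% of 2146 pairs with a median log2 ratio of -0.40. The Shisa6 3' UTR pairs had 10 and 14, 15 and 20, and 14 and 50 tags. Their log2 ratios were -0.49 (-1.82 to 0.79), -0.42 (-1.48 to 0.62) and -1.84 (-2.81 to -0.96), and the first and second intervals span both signs.

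The Shisa7 pairs lay towards opposite ends of the 3' UTR distribution. The highest pair had 2442 and 5467 tags, a log2 ratio of -1.16 (-1.23 to -1.09), and 19.6% of 3' UTR pairs were lower. The pair near the stop codon had 62 and 18 tags, a log2 ratio of 1.78 (1.01 to 2.63), and 98.8% of 3' UTR pairs were lower. Its NOVA1 cluster ends at 764 nt after the stop codon, and that of the highest pair starts at 782. With clusters within 50 nt merged, both fall into the same NOVA1 cluster, and the pairs are no longer separate. In each pair as listed, the NOVA1 cluster was the wider, by 2.14 and 3.62 times. Per nt of width the log2 ratios were -2.26 and -0.07, with 1.63% and 70.1% of 3' UTR pairs lower. The sign of the ratio at the highest pair depends on scaling. With tags divided by the sum of each list it was 0.94, and with tags divided by the total of unique tags sequenced for each protein it was 0.19, when the median 3' UTR pair was 1.70 and 0.95. Such a scaling moves every pair alike, so the order of the pairs is fixed. Which protein bound Shisa7 more cannot be read from these counts.

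**Figure D5:**
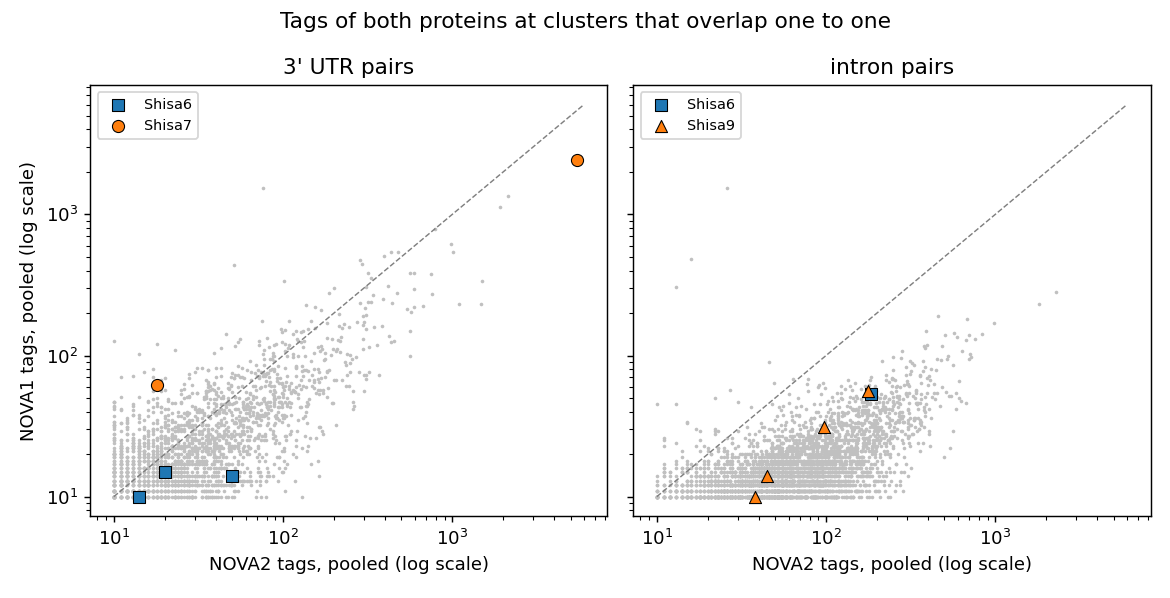
Pooled NOVA1 tags against pooled NOVA2 tags (both log scale, unscaled) at clusters that overlap one to one, for 3' UTR pairs (left) and intron pairs (right), all pairs in grey and Shisa pairs marked; the dashed line marks equal tags. The Shisa7 pairs lie on both sides of the line, at 2442 against 5467 and at 62 against 18, and the 5 Shisa6 and Shisa9 intron pairs lie below it.

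The genes most like Shisa7 in summed 3' UTR tags, by Euclidean distance over log2(tags + 1) in the 2 lists and among 2360 genes, were Gpm6a, Gabbr1, Cpe, Celf2 and Tmod2. Gpm6a, a neuronal membrane glycoprotein, had 1297 NOVA1 and 2521 NOVA2 tags at a distance of 1.48. Gabbr1, a subunit of the GABA-B receptor, had 1369 and 2134 tags at 1.62. Cpe, the carboxypeptidase of neuropeptide maturation, had 1127 and 1909 at 1.92. The remaining distances were 2.06 for Celf2 and 2.09 for Tmod2. Their 3' UTRs had 14.9 to 18.6 YCAY per 1000, against 44.1 in Shisa7, so the genes nearest to it in tags were not near it in this feature.

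Other proteins that bind AMPA receptors or hold them at synapses were counted from a list of 16 genes, in which Frrs1l stands under the symbol 6430704M03Rik in the annotation. NOVA1 clusters were found in 10 of these and NOVA2 clusters in 11, and 3 held none of either, beside 12.7% and 22.7% of all protein-coding genes with a cluster. In 3' UTRs, 7 genes held NOVA1 clusters and 5 held NOVA2 clusters, beside 8.21% and 9.45% of all protein-coding genes. The list was chosen with earlier results known and the share of these genes expressed in cortex was not set against that of all genes. Gsg1l, an auxiliary subunit of the claudin family, had the most, with 284 NOVA1 and 392 NOVA2 tags. Frrs1l, which acts in receptor assembly, had 79 and 110, and Cacng7, a transmembrane AMPA receptor regulatory protein, had 69 and 151. Cnih2, a cornichon protein, had 24 and 14, and Nptx1, a secreted pentraxin, had 22 and 31. Nptxr, the pentraxin receptor, had 72 NOVA1 tags and Cacng3 had 11, with no NOVA2 cluster of at least 10 tags in either 3' UTR. The 3' UTR tags of Shisa7 were 4.51 times the sum over the 16 genes for NOVA1 and 7.86 times for NOVA2. Shisa7 was chosen for the height of its NOVA2 cluster there, so these multiples are given as values only. Gsg1l also came closest to Shisa7 in YCAY density, with 114 YCAY starts in 2722 nt, 41.9 per 1000 (34.6 to 50.4), which ranked 2 after Shisa7 among 3' UTRs of at least 2000 nt. With UCAY alone they were further apart. Gsg1l had 12.9 per 1000, above 90.8% of 3' UTRs, and Shisa7 had 21.1, above 99.5%. The listed genes with a 3' UTR of at least 200 nt other than Gsg1l had 10.1 to 25.0 per 1000, with Frrs1l at 16.2.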

How the data were processed

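NOVA1 and NOVA2 HITS-CLIP was measured in 6 libraries, 3 per protein. The authors aligned reads to mm9 (Novoalign, per the submitters' processing notes), collapsed duplicates, pooled the libraries, kept clusters seen in at least 2 of 3 libraries and deposited those of at least 10 tags, each with a whole-number tag count that was not scaled. Tags outside the clusters are not in the lists, so the lists do not give library depth, and the study's unique tag totals served for 1 scaling alternative. A fixed minimum admits weaker sites where sequencing is deeper. No cluster ended past a chromosome end of NCBIM37 (mm9).

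Each cluster took the GENCODE vM1 class covering most of its nt on its strand, with coding sequence taking precedence over UTRs, UTRs over noncoding exons, and exons over introns and flanking 10 kb regions. Stop codons were not counted as 3' UTR. YCAY was counted per start position and compared with flanks 200 to 500 nt away. Positions count from 1. Shares carry Wilson intervals, and densities and ratios exact Poisson or binomial intervals. The intervals of YCAY densities and folds treat starts as independent. Some starts overlap in runs, so these intervals may be too narrow. No test was run. Further copies were found with BLAST+ 2.17.0. Python 3.11.15, NumPy 2.4.6, pandas 2.3.3, SciPy 1.17.1, pysam 0.24.0 and matplotlib 3.10.9 were used, and the functions were tested on simulated data.

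The genes named were the 6 members with all their clusters, genes of a list of 16 AMPA receptor auxiliary and associated genes with a 3' UTR cluster, the other Shisa genes, and the 5 genes nearest to Shisa7 in 3' UTR tags. Lars2 and the tetramer, heptamer and distance summaries were added after values were seen. Members and lists were chosen with earlier results of these data known. The windows shown are those of 30 nt with the most YCAY starts in the highest NOVA2 cluster of a gene. That of Shisa6 is not reported here. Alternatives were higher tag minimums, other overlap rules, scalings, flanks and motifs. The single libraries and clusters under 10 tags were not analysed here.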

Additional observations from a re-analysis of the deposited data

How the results depend on the processing

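No paired analysis was possible because each deposited count sums 3 libraries, which also means that no library could be left out. Of 46 alternatives to 16 values, 27 moved the value by less than its interval or, for a count, by no more than 1.5 times. With at least 20 or 30 tags per cluster, the family held 8 or 7 NOVA1 clusters and 21 or 14 NOVA2 clusters, and 14 of the 48 NOVA2 clusters had 10 to 12 tags. With the NOVA2 list reduced to its 9988 highest clusters, the shared part of the family's NOVA2 clusters was 64.3% in place of 29.2%, and that of its NOVA1 clusters 64.3% in place of 85.7%. The log2 ratio of the highest Shisa7 pair changed sign to 0.94 when scaled to list sums and to 0.19 when scaled to the study's unique tag totals, and was -2.26 per nt of width. With UCAY alone, the percentile of the 3' UTR was 69.1 for Shisa2, 47.7 for Shisa4, 61.5 for Shisa5, 79.5 for Shisa6 and 99.5 for Shisa7. The Shisa7 share of the family was 21.4% (NOVA1) and 10.4% (NOVA2) of clusters, 96.7% and 97.4% of 3' UTR tags, and 92.2% and 83.0% of tags in clusters of at least 20. The YCAY folds of the highest Shisa7 clusters and of the family without Shisa7 stayed within their intervals with other flanks and with UCAY alone, as did the Shisa7 folds over the uncovered 3' UTR. No alternative was run for the intron and Shisa6 3' UTR folds. The causes of these shifts were not tested.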
